A study of Mus musculus with 9 samples.

Results

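Transcript levels of the TGF-beta ligands, their receptors and the Smad proteins that transmit and restrain the signal were examined in mesenchymal stromal cells (MSCs) of mouse bone marrow. The set held 10 genes, chosen by name among the 21959 genes of the table, and all 10 were found. They were the ligand genes Tgfb1, Tgfb2 and Tgfb3, the latency gene Ltbp1, the receptor genes Tgfbr1, Tgfbr2 and Tgfbr3, and the Smad genes and repressor Smad3, Smad7 and Skil. The cells, labelled BMMSC and SV40, were kept for 24 h with peritoneal fluid (PF) and then profiled by RNA sequencing. The fluid came from control mice or from mice given TNBS for 3 days, a hapten that causes colitis when given to rodents, and phosphate-buffered saline (PBS) took its place in the remaining group. Each of the 3 groups, called control PF, TNBS PF and PBS, had 3 libraries, and the labels give medium with 10% serum for all of them. The labels name 1 cell line. They do not say whether the libraries of a group were separate cultures or fluid donors, and each p-value therefore reflects just the spread among these samples, possibly a technical one.

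TGF-beta is secreted as an inactive complex in which the ligand is held by its own propeptide and tethered to the matrix by a latent TGF-beta binding protein. Once released, the ligand brings together the type II and type I receptor kinases, and these phosphorylate Smad2 and Smad3, which enter the nucleus with Smad4. Smad7 and SnoN, the product of Skil, act against the pathway and are themselves induced by it, and stromal cells are both a source of the ligands and a target that answers with matrix and contractile genes.

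The genes spanned a range of levels, given here as FPKM (fragments per kilobase of exon, divided by the library's total of assigned fragments), a measure that allows genes to be compared per length. Ltbp1 was at a mean of 41.5 FPKM over the 9 libraries and Tgfbr3 at 40.3, and their ranges overlapped. Skil followed at 17.5, above Tgfbr2 at 13.9 and Smad3 at 13.5 in every library, and these last 2 genes overlapped. Tgfb3 was at 8.53, with a range of 7.45 to 9.82 that lay above that of Tgfbr1 at 6.93. Tgfb1 was at 6.75, and its range of 6.02 to 7.77 overlapped those of Tgfbr1 and Tgfb3. The ranges of Tgfb1 and Smad7, at 5.39, overlapped as well, and Tgfb2 was lowest at 2.68. The median gene tested was at 8.65 FPKM. For each gene the highest library was 1.07 to 1.38 times the lowest, so the set varied far more between genes than between groups.

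**Figure D1:**
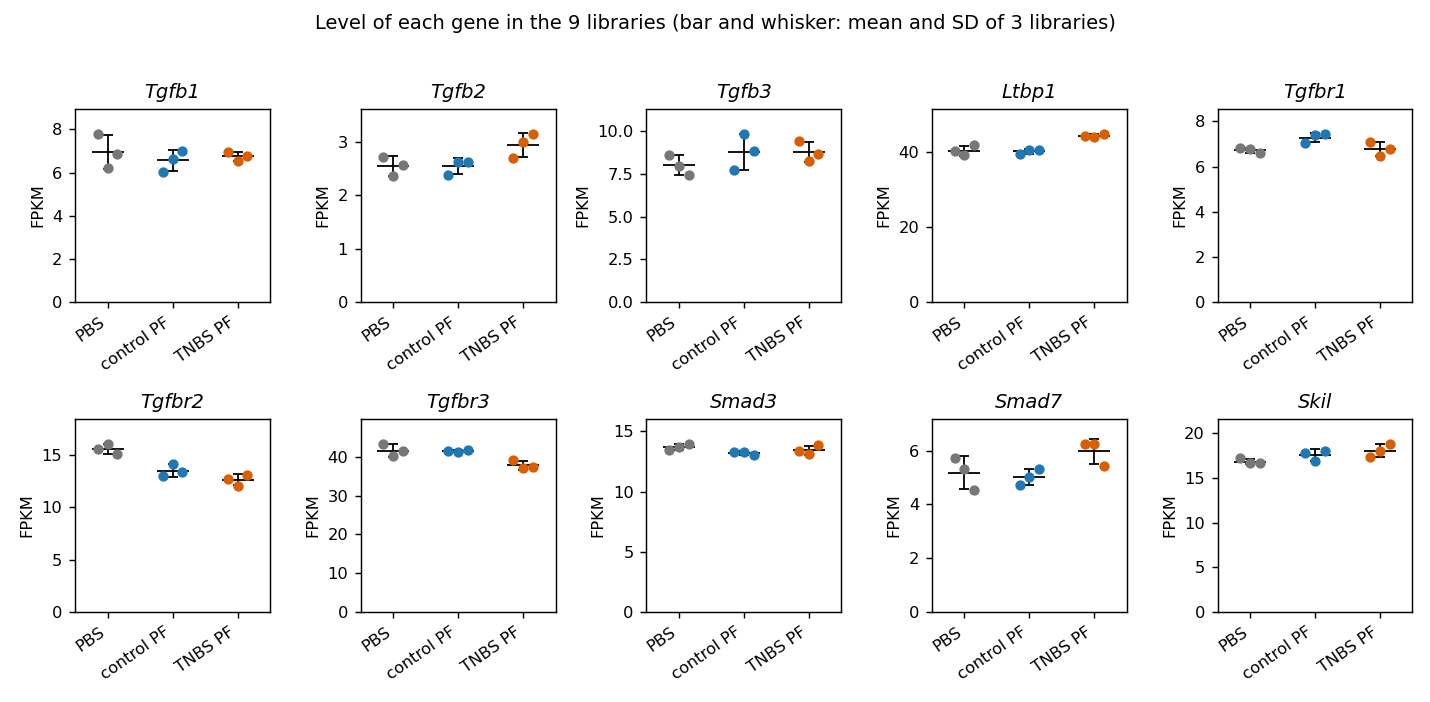
FPKM of the 10 genes in the 9 libraries, with 1 panel per gene, 1 point per library and the mean and SD of each group. Ltbp1 lies at 43.9 to 44.6 FPKM in TNBS PF and at 39.0 to 41.6 in the other groups, Tgfbr2 is highest in PBS, and the 3 groups of Tgfb1 overlap.

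Tests used the log2(FPKM + 1) scale across the 10537 genes with at least 1 FPKM in at least 3 libraries, a filter that all 10 genes passed. In TNBS PF against control PF, Ltbp1 rose and Tgfbr3 fell at an adjusted p threshold of 0.05 (limma with Benjamini-Hochberg adjustment), 2 of 10 genes where 10.6% of all tested genes passed. Between control PF and PBS Tgfbr2 alone passed, lower, with 2.15% of tested genes past the threshold. In TNBS PF against PBS Ltbp1 rose and Tgfbr2 and Tgfbr3 fell, 3 of 10 genes with 16.7% of tested genes past it. The median difference of the 10 genes was 0.03, −0.003 and 0.05 on the log2 scale in the 3 comparisons, beside −0.01, 0.0009 and −0.01 over all tested genes. The comparisons share libraries: TNBS PF enters the first and the last, control PF the first and the second, and PBS the second and the last. Groups did not overlap for 4, 3 and 4 of the 10 genes, beside 31.8%, 18.6% and 35.3% of all tested genes. TNBS PF libraries were also the deepest, with 22.9 to 25.6 M assigned fragments against 18.6 to 21.5 M in control PF and 17.9 to 20.3 M in PBS, and the part of depth in the differences was not tested.

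Tgfb1 (ENSMUSG00000002603, chromosome 7, 25687002 to 25705077, plus strand of mm10), whose protein is the most studied ligand of wound repair and immune restraint, was at 6.02, 6.64 and 7.01 FPKM in control PF 1 to 3. It was at 6.96, 6.53 and 6.75 in TNBS PF and at 7.77, 6.23 and 6.86 in PBS. The 3 groups overlapped, with the highest and the second lowest values both in PBS. The difference of TNBS PF from control PF was 0.04 on the log2 scale with a 95% interval of −0.11 to 0.19 (adjusted p = 0.789). The intervals were −0.22 to 0.08 for control PF against PBS and −0.18 to 0.12 for TNBS PF against PBS.

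Tgfb3 (ENSMUSG00000021253, chromosome 12, 86056745 to 86079041, minus strand), a ligand that shares the receptors of Tgfb1, had the highest level of the 3 ligand genes in 9 of 9 libraries. It was at 7.70, 9.82 and 8.82 FPKM in control PF, 9.44, 8.26 and 8.68 in TNBS PF and 8.62, 7.97 and 7.45 in PBS. The groups overlapped, and none of the differences passed, the largest being 0.12 in TNBS PF against PBS (interval −0.04 to 0.28, adjusted p = 0.31).

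Tgfb2 (ENSMUSG00000039239, chromosome 1, 186622792 to 186705989, minus strand), whose ligand binds the type II receptor poorly without the co-receptor encoded by Tgfbr3, was at 2.70, 3.00 and 3.14 FPKM in TNBS PF. It was at 2.39, 2.63 and 2.63 in control PF and at 2.72, 2.35 and 2.57 in PBS. All TNBS PF values lay above those of control PF, while TNBS PF 1 fell just under the highest PBS library. The difference of 0.15 between TNBS PF and control PF had an interval of 0.01 to 0.30 before adjustment and an adjusted p of 0.167, and did not pass. Between 245 and 444 fragments per library lay behind these values.

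Together the 3 ligand genes summed to 16.1 to 19.1 FPKM per library. Tgfb3 made up 44.1 to 51.4% of that sum, Tgfb1 34.8 to 40.7% and Tgfb2 13.8 to 16.9%, as a description of the mixture with no test.

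Ltbp1 (ENSMUSG00000001870, chromosome 17, 75005568 to 75392512, plus strand) encodes a latent TGF-beta binding protein, which joins the small latent complex and anchors it to fibrillin and fibronectin fibres. Its level was 44.0, 43.9 and 44.6 FPKM in TNBS PF 1 to 3. It was 39.3, 40.4 and 40.5 in control PF and 40.2, 39.0 and 41.6 in PBS. All 3 TNBS PF libraries lay above all 6 others, which overlapped between the 2 remaining groups. Group means were 44.2 ± 0.384 FPKM in TNBS PF, against 40.1 ± 0.659 for control PF and 40.3 ± 1.33 for PBS (SD, n = 3 each). Ltbp1 rose by 0.14 on the log2 scale in TNBS PF against control PF (SE 0.0317, limma adjusted p = 0.0157), a level 10.1% higher, and by 0.13 against PBS (adjusted p = 0.0133). Control PF differed from PBS by −0.005 (interval −0.07 to 0.06, adjusted p = 0.963). At least 7492 fragments per library lay behind each value, the most of the 10 genes. The adjusted p of the first comparison was 0.0637 without TNBS PF 3 and 0.0569 without control PF 1, in a range of 0.00124 to 0.0637 over 17 alternatives. That of the second was 0.053 without TNBS PF 3, 0.0509 on the TPM scale and 0.0546 after quantile normalization, in a range of 0.00138 to 0.0546.

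Tgfbr2 (ENSMUSG00000032440, chromosome 9, 116084293 to 116175360, minus strand) encodes the type II receptor, the kinase that binds ligand first and activates its type I partner. It was at 15.6, 16.1 and 15.1 FPKM in PBS 1 to 3. The values were 13.0, 14.2 and 13.4 in control PF and 12.7, 12.1 and 13.1 in TNBS PF. Every PBS library lay above every library with fluid, while the 2 fluid groups overlapped. Means were 15.6 ± 0.475, 13.5 ± 0.610 and 12.6 ± 0.517 FPKM in PBS, control PF and TNBS PF (SD, n = 3 each). Tgfbr2 fell by 0.28 in TNBS PF against PBS (SE 0.0448, limma adjusted p = 0.000993), a level lower by 19.0%, and it passed under all 17 alternatives, with adjusted p between 5.23e-06 and 0.00664. The fall of 0.19 in control PF against PBS was close to the threshold (adjusted p = 0.0411). Its adjusted p was 0.0957, 0.0941 and 0.0667 without PBS 1, 2 and 3, 0.142 and 0.117 without control PF 1 and 3, 0.0653 without TNBS PF 1, 0.0969 without the filter on low values, 0.0696 with only the 2 groups compared and 0.0792 with the replicate number as a block, in a range of 0.00456 to 0.142. TNBS PF differed from control PF by −0.09 (interval −0.19 to 0.01, adjusted p = 0.234), so a difference between the fluids was not shown for this gene.

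Upstream sequence is shown for Ltbp1 and Tgfbr2, the called genes for which it was at hand, since Smad3 and Smad4 bind DNA at a short box. RefSeq promoters of 250 bases before to 50 after a transcript start on GRCm38.p6, the assembly of mm10, were matched for 6 of the 10 genes. They were searched on both strands for the Smad box CAGAC, which reads GTCTG on the other strand. The AP-1 motif searched was TGANTCA. The GC box searched was GGGCGG, which reads CCGCCC on the other strand. None of these motifs contains another. Ltbp1 has a pair of RefSeq starts, upstream and internal, known to give a long and a short protein, which one FPKM value per gene cannot separate. Each sequence runs 5′ to 3′ on the strand of the gene, with Smad boxes in capitals.
Tgfbr2, chr9:116175314-116175613, minus strand: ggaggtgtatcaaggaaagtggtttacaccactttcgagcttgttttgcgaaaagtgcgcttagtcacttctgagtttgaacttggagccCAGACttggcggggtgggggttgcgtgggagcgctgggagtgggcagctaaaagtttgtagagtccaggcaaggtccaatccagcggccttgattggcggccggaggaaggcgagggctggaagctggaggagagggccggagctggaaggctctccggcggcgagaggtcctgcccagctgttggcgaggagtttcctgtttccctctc
Ltbp1 upstream start, chr17:75005279-75005578, plus strand: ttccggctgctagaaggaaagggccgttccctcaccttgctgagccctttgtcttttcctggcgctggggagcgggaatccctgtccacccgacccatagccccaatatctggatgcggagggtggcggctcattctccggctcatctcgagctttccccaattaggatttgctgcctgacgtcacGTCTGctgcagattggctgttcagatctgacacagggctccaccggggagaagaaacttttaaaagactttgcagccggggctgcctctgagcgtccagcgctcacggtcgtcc
Ltbp1 internal start, chr17:75178531-75178830, plus strand: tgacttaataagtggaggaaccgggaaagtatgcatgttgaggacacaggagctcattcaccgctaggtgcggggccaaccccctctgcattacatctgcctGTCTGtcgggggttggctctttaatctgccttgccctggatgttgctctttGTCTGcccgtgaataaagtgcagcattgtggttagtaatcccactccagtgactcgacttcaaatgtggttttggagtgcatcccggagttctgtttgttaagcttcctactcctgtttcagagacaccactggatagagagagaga
The Tgfbr2 window held 1 Smad box, at position −160 from the start, and the upstream Ltbp1 window 1, at −64. The internal Ltbp1 window held 2, at −148 and −97, and the Tgfb2 window also held 2, at −221 and −204. One of the Tgfbr1 windows held 1, at −203, and those of Tgfb1 and Smad3 held 0. Of 32851 promoters of the same length 49.6% held at least 1 box and 16.2% at least 2, so neither count is rare. The AP-1 motif, held by 7.81% of promoters, was found in 0 of the 8 windows of these genes. The GC box, held by 35.7%, was found 6 times at Tgfb1, 2 times at Smad3, 2 times in the other Tgfbr1 window and in 0 of the windows of Tgfb2, Ltbp1 and Tgfbr2. A match describes letters and does not show binding.

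Tgfbr3 (ENSMUSG00000029287, chromosome 5, 107106570 to 107289629, minus strand) encodes betaglycan, a co-receptor without kinase activity that presents ligand to the type II receptor and, when shed, can hold ligand away from it. It was at 39.2, 37.2 and 37.3 FPKM in TNBS PF. It was at 41.5, 41.3 and 41.9 in control PF and at 43.3, 40.1 and 41.4 in PBS. The TNBS PF libraries lay below all others, with TNBS PF 1 within 1 FPKM of PBS 2. Means were 37.9 ± 1.16, 41.5 ± 0.295 and 41.6 ± 1.63 FPKM in TNBS PF, control PF and PBS (SD, n = 3 each). Tgfbr3 fell by 0.13 in TNBS PF against control PF (SE 0.035, limma adjusted p = 0.0318) and by 0.13 against PBS (adjusted p = 0.0217), a level lower by 8.82 and 8.96%. Control PF and PBS differed by −0.001 (interval −0.08 to 0.07). The first call was lost without TNBS PF 2 or 3 (adjusted p = 0.116 and 0.113) and without control PF 1, 2 or 3 (0.0701, 0.0752 and 0.0908). It was also lost after median-ratio scaling (0.0568) and without the filter (0.0568), in a range of 0.00618 to 0.116. The second was lost without TNBS PF 2 or 3 (0.0827 and 0.08) and without PBS 1 (0.0773), in a range of 0.0045 to 0.0827.

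Tgfbr1 (ENSMUSG00000007613, chromosome 4, 47353222 to 47414931, plus strand) encodes the type I receptor ALK5, the kinase that phosphorylates Smad2 and Smad3. It was at 7.04, 7.38 and 7.43 FPKM in control PF, 7.07, 6.48 and 6.79 in TNBS PF and 6.80, 6.76 and 6.58 in PBS. All control PF values lay above those of PBS, and 1 TNBS PF library reached into the control PF range. The difference of 0.10 between control PF and PBS did not pass (interval 0.0007 to 0.20 before adjustment, adjusted p = 0.316), nor did those of TNBS PF from control PF (−0.09, adjusted p = 0.258) or from PBS (0.01, adjusted p = 0.893). As a description chosen after the values were seen, the ratio of the Tgfbr2 level to the Tgfbr1 level was 2.29 to 2.38 in PBS, 1.80 to 1.92 in control PF and 1.80 to 1.93 in TNBS PF. The fluid groups overlapped in it and lay below PBS.

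Smad3 (ENSMUSG00000032402, chromosome 9, 63646767 to 63757994, minus strand), the receptor-activated Smad that binds DNA, was the steadiest of the 10 genes over the 9 libraries. It was at 13.3, 13.3 and 13.0 FPKM in control PF, 13.4, 13.1 and 13.8 in TNBS PF and 13.5, 13.7 and 14.0 in PBS. The control PF values lay below those of PBS by a small margin, and TNBS PF overlapped both. Its differences were 0.02, −0.05 and −0.03 in the order given above, with adjusted p of 0.772, 0.577 and 0.655, and the 3 intervals together spanned −0.13 to 0.10.

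Smad7 (ENSMUSG00000025880, chromosome 18, 75367529 to 75395935, plus strand), the inhibitory Smad that blocks the type I receptor and recruits ubiquitin ligases to it, was at 6.24, 6.25 and 5.43 FPKM in TNBS PF. It was at 4.72, 5.02 and 5.30 in control PF and at 5.71, 5.31 and 4.52 in PBS. TNBS PF lay above control PF in every library, with TNBS PF 3 close to control PF 3, and PBS overlapped both. The difference from control PF was 0.21 (interval 0.05 to 0.38 before adjustment), the largest of the 10 genes in that comparison, with a level 19.2% higher and an adjusted p of 0.091 that did not pass. It passed with limma voom on recovered fragments (adjusted p = 0.0353) and with only the 2 groups compared (0.0477), in a range of 0.0353 to 0.244. The difference from PBS was 0.18 (interval 0.01 to 0.34, adjusted p = 0.128).

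Skil (ENSMUSG00000027660, chromosome 3, 31095058 to 31122577, plus strand) encodes SnoN, a repressor that binds Smad complexes on DNA and is degraded when the pathway is switched on. It was at 17.32, 18.01 and 18.81 FPKM in TNBS PF, 17.8, 16.9 and 18.1 in control PF and 17.2, 16.6 and 16.7 in PBS. TNBS PF lay above PBS in every library and overlapped control PF. Its difference of 0.09 from PBS had an interval of 0.01 to 0.18 before adjustment and an adjusted p of 0.137, and the other differences were 0.04 and 0.06 with adjusted p of 0.629 and 0.547. The authors' deposited table, whose test is not stated, gives an unadjusted p under 0.05 for 4 of the 10 genes in TNBS PF against control PF, 1 in control PF against PBS and 6 in TNBS PF against PBS, and an absolute log2 fold change of 1 or more for 0. Among the 10537 genes tested here, the authors' deposited table has such a p for 22.2%, 9.39% and 25.1% in the same order.

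**Figure D2:**
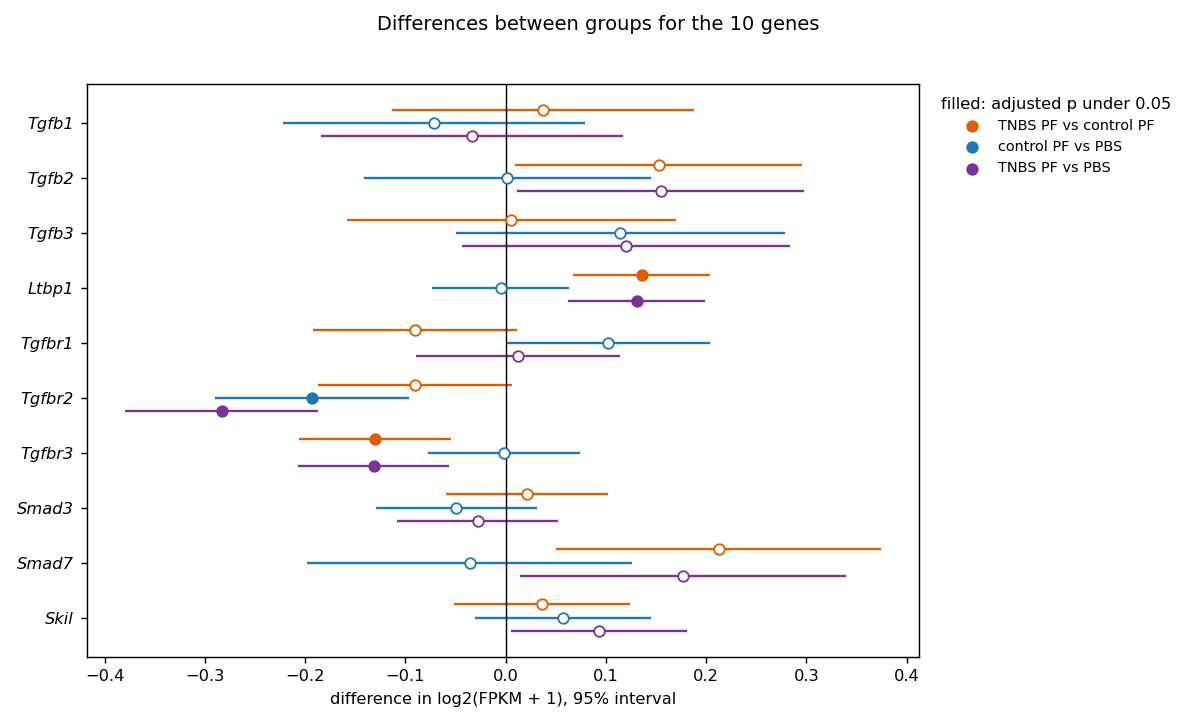
Difference between groups in log2(FPKM + 1) (x axis) with its unadjusted 95% interval for the 10 genes (y axis) in the 3 comparisons, filled where the adjusted p was under 0.05. Filled points are Ltbp1 at 0.14 and 0.13, Tgfbr3 at −0.13 in both comparisons with TNBS PF, and Tgfbr2 at −0.19 and −0.28.

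**Figure D3:**
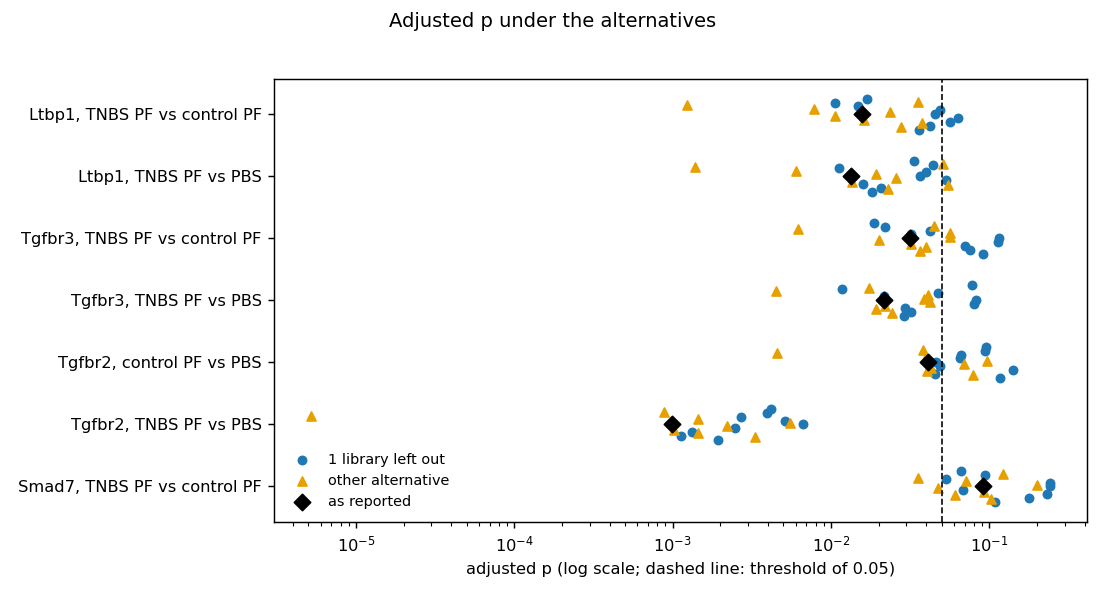
Adjusted p (log axis) of the called differences and of Smad7 as reported, with 1 library left out (9 points each) and under the other 8 alternatives, against the threshold of 0.05. Tgfbr2 in TNBS PF against PBS stays left of the line throughout, and the other differences cross it.

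The other genes of the pathway were read from 5 lists, which hold genes named in earlier results of these data, so their counts are a description. The first held the remaining Smads, Smad1, Smad2, Smad4, Smad5, Smad6 and Smad9. All 6 were tested and 0 passed in each of the 3 comparisons (limma with Benjamini-Hochberg adjustment, as for every gene below), with list medians of −0.05, 0.02 and −0.03. The smallest p belonged to Smad6 in TNBS PF against control PF (−0.13, adjusted p = 0.352), Smad5 in control PF against PBS (0.04, adjusted p = 0.687) and Smad9 in TNBS PF against PBS (−0.14, adjusted p = 0.227).

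Of 14 further receptors and co-receptors of the family, 11 were tested. Nrp1, a neuropilin that can bind TGF-beta beside its better known ligands, fell in TNBS PF against control PF (−0.29, adjusted p = 0.00659). It was the 1 gene of the list that passed, where 10.6% of all tested genes did in either direction and 5.45% were lower. Against PBS both Nrp1 (−0.48, adjusted p = 0.000116) and Nrp2 (−0.28, adjusted p = 0.00381) fell and 0 rose. Of all tested genes 16.7% passed there in either direction and 8.88% were lower. Counted in either direction, the list was close to the share over all genes in both comparisons. The number risen was 1 without PBS 1. Nrp1 was at 1.83 ± 0.0541 FPKM in TNBS PF, against 2.46 ± 0.0957 for control PF and 2.96 ± 0.0784 for PBS (SD, n = 3 each), with no overlap between groups. Its difference between control PF and PBS did not pass (−0.20, adjusted p = 0.0989), and 0 of the 11 passed there. The list medians were −0.07, 0.01 and −0.01.

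Of 22 tested genes of latency and activation, 8 were lower and 1 higher past the threshold in TNBS PF against control PF, beside 5.45% of tested genes lower and 5.15% higher, with a list median of −0.10. Those that fell included Aspn, a small proteoglycan that binds TGF-beta (−0.58, adjusted p = 0.000176), and Thbs2, a thrombospondin without the activating sequence of Thbs1 (−0.48, adjusted p = 1.13e-05). Emilin1, which limits processing of the ligand precursor (−0.34, adjusted p = 0.000178), and the microfibril gene Fbn1 (−0.24, adjusted p = 0.00497) fell as well. Itgav, the integrin chain that takes part in binding the latency propeptide, was the gene that rose (0.14, adjusted p = 0.023), named after its value was seen. The number fallen was 5 without control PF 2, and the number risen was 0 without TNBS PF 1, 2 or 3 or control PF 1 or 2, and 2 without PBS 1 or 2.

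Of the same 22 genes 3 passed downward and 0 upward in control PF against PBS, beside 1.14% of tested genes lower, with a median of −0.02. These were Aspn (−0.53, adjusted p = 0.0015), the gelatinase gene Mmp9 (−0.46, adjusted p = 0.0178) and Thbs1, an activator of latent TGF-beta (−0.43, adjusted p = 2.56e-05). The number was 5 without PBS 2, and Mmp9 missed the threshold without PBS 3 (adjusted p = 0.0694), control PF 1 (0.0571) or control PF 2 (0.0702). Against PBS, TNBS PF had 10 that fell and 0 that rose, beside 8.88% lower, with a median of −0.10. The 4 of largest change were Aspn (−1.10, adjusted p = 8.65e-07), Thbs2 (−0.62, adjusted p = 9.62e-07), Mmp9 (−0.55, adjusted p = 0.0013) and Thbs1 (−0.36, adjusted p = 9.42e-06). Aspn was at 4.30 ± 0.378 FPKM in TNBS PF, against 6.92 ± 0.553 for control PF and 10.4 ± 0.561 for PBS (SD, n = 3 each), so the 3 groups were separate.

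Of 27 tested negative regulators and Smad adaptors, 3 passed upward and 1 downward in TNBS PF against control PF. Of all tested genes 10.6% passed in either direction, 5.15% higher and 5.45% lower, so the count in either direction was close to that share. The list median was 0.0008. Tgif1, a homeodomain repressor of Smad2, rose (0.21, adjusted p = 0.00674), as did Fkbp1a, the immunophilin that holds the type I receptor inactive (0.13, adjusted p = 0.013), and Strap, which stabilises Smad7 at the receptor (0.12, adjusted p = 0.036). Tob1, an antiproliferative adaptor, fell (−0.15, adjusted p = 0.0287). Strap missed the threshold without TNBS PF 1, 2 or 3 or control PF 2 or 3, with adjusted p of up to 0.136, and Fkbp1a without TNBS PF 1 (0.0526) or control PF 3 (0.0576). The number risen was 1 without TNBS PF 1 and without control PF 3, and the number fallen was 0 without TNBS PF 1, 2 or 3 or control PF 1 or 2. Against PBS the 4 genes Fkbp1a (0.16, adjusted p = 0.00328), Tgif1 (0.15, adjusted p = 0.0292), Strap (0.13, adjusted p = 0.0188) and Rnf11 (0.10, adjusted p = 0.03) rose and 0 fell. Of all tested genes 16.7% passed there in either direction and 7.8% were higher. The number fallen was 1 without PBS 1. That risen was 1 without TNBS PF 1 or 2, and 2 without TNBS PF 3 or PBS 2 or 3. Tgif1 and Rnf11 each missed the threshold without TNBS PF 1, 2 or 3 or PBS 2 or 3, with adjusted p of up to 0.099 and 0.0899. Strap missed it without TNBS PF 1 (0.0589), TNBS PF 2 (0.0722) or PBS 1 (adjusted p = 0.0666). Between control PF and PBS 0 of the 27 passed, or 1 without PBS 1, and Cav1 had the smallest p (−0.08, adjusted p = 0.21).

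The known transcriptional targets moved in both directions. Of 41 tested, 11 passed upward and 4 downward in TNBS PF against control PF, beside 5.15% of tested genes higher and 5.45% lower, with a list median of 0.07. Ccn2 (0.99, adjusted p = 5.64e-08) and Ccn1 (0.61, adjusted p = 9.83e-08), matricellular genes that also answer to YAP, rose most. Inhba, which encodes the activin A subunit (0.42, adjusted p = 4.99e-05), and Id1, a helix-loop-helix inhibitor more usually tied to bone morphogenetic proteins (0.39, adjusted p = 0.00155), also rose, and both were named after their values were seen. The matrix genes Col3a1 (−0.49, adjusted p = 4.25e-06) and Tgfbi (−0.47, adjusted p = 0.000219) fell. Inhba was at 43.2 ± 1.56 FPKM in TNBS PF, against 32.2 ± 0.703 for control PF and 37.5 ± 1.78 for PBS (SD, n = 3 each). The number fallen was 7 without PBS 1.

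Between control PF and PBS 2 targets rose and 8 fell, beside 1.02 and 1.14% of tested genes, with a median of −0.06. Postn, a matricellular gene at low level here (−0.56, adjusted p = 0.00234), the smooth muscle actin genes Acta2 (−0.43, adjusted p = 2.56e-05) and Actg2 (−0.32, adjusted p = 0.0241), and Ccn2 (−0.34, adjusted p = 0.00175) fell most. The number fallen was 5 without PBS 3 or control PF 1 and 4 without control PF 2. Actg2 missed the threshold without any 1 of these 3 libraries, with adjusted p of up to 0.0975, and the number risen was 1 without control PF 1. TNBS PF against PBS had 9 targets that rose and 11 that fell, beside 7.8 and 8.88% of tested genes, with a median of 0.02. Col3a1 (−0.77, adjusted p = 5.34e-08) and Postn (−0.68, adjusted p = 7.8e-05) were lowest, and Ccn2 (0.65, adjusted p = 2.53e-06) and Ccn1 (0.55, adjusted p = 2.98e-07) highest.

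**Figure D4:**
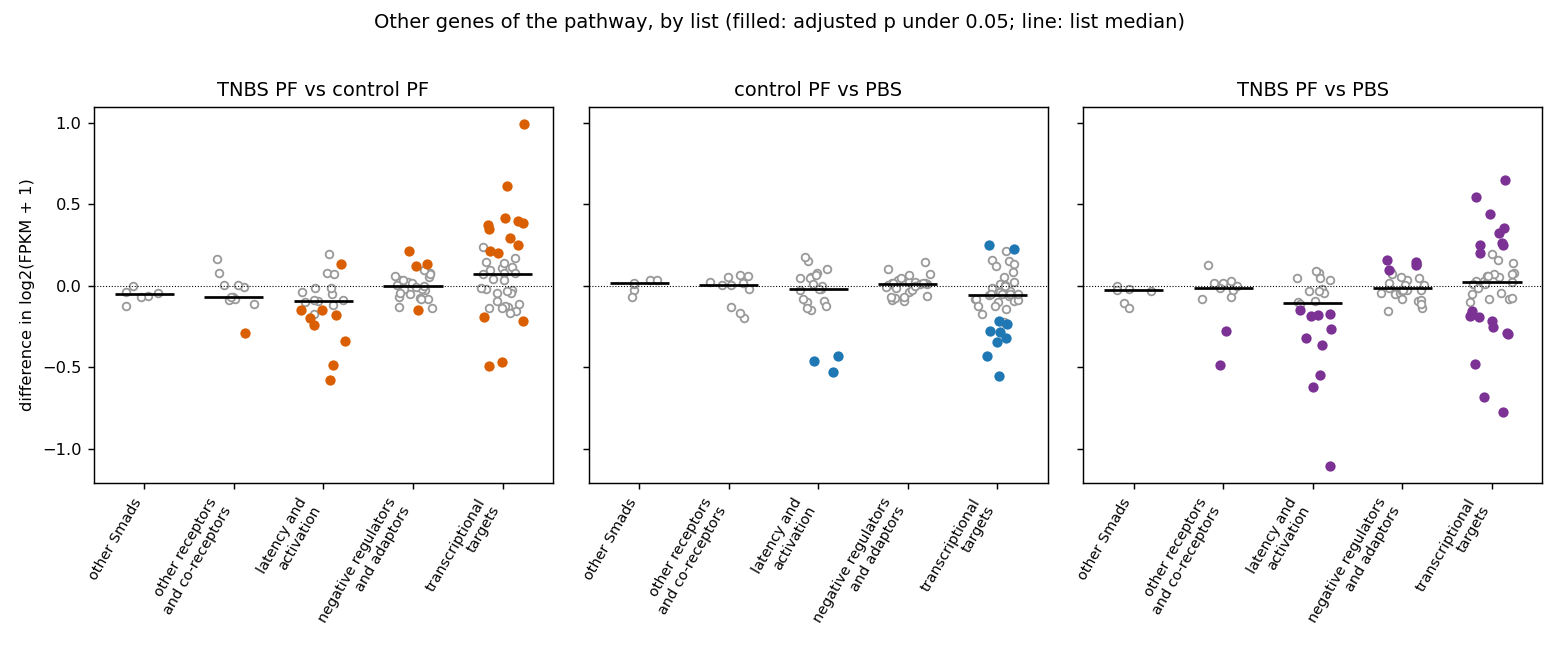
Difference in log2(FPKM + 1) of the tested genes of the 5 lists in the 3 comparisons, filled where the adjusted p was under 0.05, with a line at the median of the list. The targets spread from −0.77 to 0.99, the latency genes have medians of −0.10, −0.02 and −0.10, and the other Smads differ by at most 0.14 in either direction.

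The genes most like each called member were found by the root mean square difference of log2(FPKM + 1), centred on each gene's mean, over the 9 libraries. Nearest to Ltbp1 were Eprs (0.0146), Septin11 (0.0148) and Ptprk (0.018), where Ltbp1 itself varied by 0.0677. Nearest to Tgfbr2 were Bid (0.0322), H2-Q4 (0.0338) and Tlr3 (0.0342), where Tgfbr2 varied by 0.126. Nearest to Tgfbr3 were Phip (0.0239), Grn (0.0254) and Brat1 (0.0254), where Tgfbr3 varied by 0.0701. The measure describes likeness over these libraries only.

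The labelled cell type was checked against 15 mesenchymal stromal markers, all of which were at a mean of 1 FPKM or more, with Itgb1 the highest. In TNBS PF against control PF 5 of them fell and 2 rose, beside 5.45% of tested genes lower and 5.15% higher. Those that fell included Pdgfrb (−0.39, adjusted p = 0.000104), Pdgfra (−0.38, adjusted p = 0.000235) and Ly6a (−0.32, adjusted p = 0.000219). Cd44 (0.21, adjusted p = 0.000456) and Vcam1 (0.12, adjusted p = 0.0305) rose, Vcam1 being named after its value was seen. Against PBS, TNBS PF had 6 of the 15 lower and 2 higher, beside 8.88% and 7.8% of tested genes. Largest were the changes of Nt5e (0.44, adjusted p = 0.00361) and Pdgfrb (−0.42, adjusted p = 2.61e-05). Pdgfra (−0.36, adjusted p = 0.000215) and Col1a2 (−0.29, adjusted p = 0.000219) followed. Between control PF and PBS Nt5e rose (0.39, adjusted p = 0.0326) and Cd44 fell (−0.21, adjusted p = 0.00189), beside 1.02 and 1.14%. That rise of Nt5e missed the threshold with some library left out (adjusted p of up to 0.117). The summed level of the 15 was 1726 to 1748 FPKM in TNBS PF, against 1813 to 1832 for control PF and 1829 to 1889 for PBS. Of 14 mesothelial markers 9 were under 1 FPKM in every library, with Muc16 at 0. Of 5 tested, 4 rose and 0 fell in TNBS PF against control PF, beside 5.15% of tested genes higher. These were Krt19 (0.59), Krt18 (0.28), Msln (0.24) and Ezr (0.17). Slpi, the other gene tested, did not pass, and every TNBS PF library lay below every control PF library. It was at 4.94 ± 0.563 FPKM in TNBS PF against 6.04 ± 0.363 for control PF (SD, n = 3 each). Krt19, Krt18, Msln and Ezr rose against PBS too, beside 7.8%, and 0 of the 5 passed between control PF and PBS. Slpi had the smallest p there (0.39, adjusted p = 0.051), in a range of 0.00494 to 0.165 with a library left out. Each of the 4 that rose missed the threshold in at least 1 comparison with some library left out. The sum of the 14, with Msln the highest, was 79.0 to 84.8 FPKM in TNBS PF, against 70.4 to 71.6 for control PF and 69.9 to 70.7 for PBS. Macrophage and monocyte markers summed to 19.4 to 21.7, 18.4 to 20.4 and 16.9 to 18.5 FPKM in the same order, mostly from Cd14, with 9 of 12 under 1 FPKM throughout and Timd4 at 0. Of 3 tested, 2 rose in TNBS PF against PBS, beside 7.8% of tested genes higher. These were Gata6 (0.25, adjusted p = 0.0317) and Cd14 (0.19, adjusted p = 0.03). Both missed the threshold with some library left out, with adjusted p of up to 0.125 and 0.121. In the other comparisons 0 of the 3 passed. The smallest p was that of Cd68 in TNBS PF against control PF (0.17, adjusted p = 0.382). In control PF against PBS it was that of Gata6 (0.22, adjusted p = 0.139). The 8 neutrophil, 8 lymphocyte and 7 endothelial or epithelial markers found were under 1 FPKM in every library. Of 11 osteogenic, chondrogenic and adipogenic markers 9 were under 1 FPKM throughout, with Acan at 0, and 0 of the 2 tested passed in any comparison, as for Sox9 in TNBS PF against PBS (−0.05, adjusted p = 0.748). The mesothelial and stromal sums moved with the TNBS PF group, as Ltbp1 and Tgfbr3 did. The macrophage sum lay higher in TNBS PF than in PBS and overlapped that of control PF. The part of these sums in the differences of the members and of the lists was not tested. In bulk libraries fewer cells of a type and less RNA per cell cannot be told apart. The strand of the libraries is not given, and Tgfb2 and Tgfb3 overlap exons of genes on the other strand, and Tgfbr3 overlaps Gm43422 on its own, so reads shared with these cannot be told apart.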

How the data were processed

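RNA was measured in 9 libraries of 3 groups. The labels' protocols give Trizol extraction and an input of 3 µg of RNA. Reads were trimmed with cutadapt 1.15 and the build was mm10, per the submitters' processing notes. An aligner, counting program or strand setting was not given in the sources used here. Per the file headers, the deposited table holds FPKM per gene and library, with a log2 fold change and a p-value of each comparison by the authors, used only where the authors' table is named. Multiplied by exon lengths of GENCODE M21, FPKM under 1000 fragments were whole within 0.01 for 97.2 to 97.3% of values, which gave 17.9 to 25.6 M assigned fragments per library, where 1 fragment in 1 kb is 0.0391 to 0.056 FPKM.

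FPKM were tested as log2(FPKM + 1) in genes with at least 1 FPKM in at least 3 libraries (10537), with 1 model of all 9 libraries in limma 3.58.1 (R 4.3.3), moderated variances with a trend, Benjamini-Hochberg adjustment over all tested genes and a threshold of 0.05. Adding 1 understates the change of low genes. The median standard error was 0.0545. The procedure was run on simulated data, in which the planted changes were larger than most of the differences called among the 10 members. Recovery of changes as small as those was not tested. The members and lists were chosen with earlier results of these data known. Named genes were the 10 members, up to 4 called genes of largest change per list and comparison (or the gene of smallest p), and the 3 genes most like each called member. Exceptions are marked in the text. The alternatives were a pseudocount of 0.1, no filter, the TPM scale, median-ratio and quantile scaling, only the 2 groups compared, limma voom on recovered fragments, a replicate block and leaving out each library.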

Additional observations from a re-analysis of the deposited data

How the results depend on the processing

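Over 10 genes, 3 comparisons and 17 alternatives, 467 of 510 member differences kept their direction and their side of the threshold, 24 lost a call, 2 gained one and 17 changed sign, of which 0 were called. The cause of these changes was not tested. Only a called difference could lose a call, and Tgfbr2 in TNBS PF against PBS alone kept its call under all 17 alternatives. On the TPM scale Tgfb2 in control PF against PBS was −0.0119 and Tgfbr1 in TNBS PF against PBS −0.00805. The other sign changes came from leaving out 1 library, with ranges in TNBS PF against control PF of −0.0149 to 0.0807 for Tgfb1 and −0.0755 to 0.0815 for Tgfb3. In control PF against PBS the ranges were −0.138 to 0.00148 for Tgfb1, −0.0378 to 0.0365 for Tgfb2, −0.027 to 0.0277 for Tgfbr3, −0.115 to 0.0258 for Smad7 and −0.0277 to 0.0186 for Ltbp1. In TNBS PF against PBS they were −0.100 to 0.0389 for Tgfb1, −0.0147 to 0.0400 for Tgfbr1 and −0.082 to 0.0108 for Sox9, the last a cartilage gene outside the set. Members past the threshold in TNBS PF against control PF, 2 as reported, numbered 1 under median-ratio scaling and 1 without the filter, 3 by limma voom and with only the 2 groups compared, and 0 to 2 with a library left out. Between control PF and PBS the 1 became 0 without the filter, with only the 2 groups compared and with the replicate block, and 0 to 1 with a library left out. In TNBS PF against PBS the 3 became 2 on the TPM scale, 2 after quantile normalization and 1 to 3 with a library left out. Tested genes past the threshold, 1117, 227 and 1758 in the 3 comparisons, were 661 to 1255, 115 to 311 and 1148 to 1735 with a library left out. Between control PF and PBS they were 374 by limma voom and 103 without the filter, where more genes are tested. Among the lists, in TNBS PF against control PF, targets that fell numbered 7 by limma voom and with only the 2 groups compared. Latency genes that rose numbered 3 under the same 2 settings, 2 under median-ratio scaling and 0 on the TPM scale and after quantile normalization. Negative regulators that fell numbered 2 by limma voom and 0 under median-ratio scaling, without the filter and with the replicate block. Between control PF and PBS 5 targets fell and 1 rose without the filter, and limma voom gave 5 latency genes and 2 further receptors that fell. In TNBS PF against PBS 2 negative regulators rose on the TPM scale and with the replicate block. Of the lists' counts of 0, negative regulators that fell there numbered 1 on the TPM scale, 1 after quantile normalization and 2 by limma voom, further receptors that rose 1 under median-ratio scaling, and latency genes that rose 1 under median-ratio scaling and 1 by limma voom. For control PF against PBS 1 latency gene rose by limma voom and 1 negative regulator fell after quantile normalization. Deviations of same-numbered libraries from their group means had correlations of −0.0978 to 0.0746. Such values cannot show whether the libraries were paired by number, and the labels do not say. The replicate block gave 906, 169 and 1537 tested genes and changed the call of 1 member, Tgfbr2 in control PF against PBS.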
